A study of Homo sapiens with 8 samples.

Results

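The genes described here are homeobox transcription factors outside the HOX clusters: LHX6, MEOX1, MEOX2, PRRX1, MEIS1, MEIS2, PBX3 and HHEX. They were taken by name from a deposited table that compares human retinal endothelial cells (iREC) with endothelial cells (iEC), and 7 of the 8 had a row among its 30386 genes. MEOX1, the closest relative of MEOX2, is not analysed here. The 8 genes were selected on measured values of this same comparison. Their differences between iREC and iEC are therefore given as a description, with no p-value. RNA sequencing was done on 4 iEC samples and 4 iREC samples, with replicate letters C, D, E and F in each group. Both kinds of cell were made from WTC-TJP1, a single established human induced pluripotent stem cell line, and both were collected at passage 1. The iREC came from a matched differentiation of that line. No gene was edited or knocked out between the groups, and no agent, dose or day of differentiation is given in the labels.

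Homeobox genes encode transcription factors that bind DNA through the homeodomain, a fold of 3 helices of which the last lies in the major groove. They are grouped into classes by the homeodomain and by any other domain they carry. LHX6 is a LIM class factor, known for specifying interneurons born in the ventral forebrain and for roles in tooth and jaw mesenchyme. MEOX2 and HHEX belong to the ANTP class, PRRX1 to the PRD class, and MEIS1, MEIS2 and PBX3 to the TALE class. In vessels, MEOX2 is known as a growth arrest factor of smooth muscle and as an endothelial regulator of fatty acid uptake, and HHEX as an early factor of endothelial and blood progenitors.

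The 7 genes differ in the residue at position 50 of the homeodomain, which touches DNA bases next to the core site. The stretches below are shown because that residue separates the TALE genes from the others. Each is the coding sequence for a part of the recognition helix, 30 bases read 5′ to 3′ from the tryptophan codon, from the GENCODE release 29 transcripts on the GRCh38 build. Capitals mark the codon for position 50.
LHX6: tggtttCAAaactgccgggcgcgtcataaa
MEOX2: tggttcCAAaacaggcggatgaagtggaag
PRRX1: tggtttCAGaaccgaagagccaagttccgc
HHEX: tggtttCAGaatcgacgcgctaaatggagg
MEIS1: tggtttATTaatgcccggagaagaatagtg
MEIS2: tggtttATTaatgccagaagaagaatagta
PBX3: tggtttGGCaacaaacgaatcaggtacaag
The codon read glutamine in LHX6, MEOX2, PRRX1 and HHEX, isoleucine in MEIS1 and MEIS2, and glycine in PBX3. The homeobox was 180 bases long in LHX6, MEOX2, PRRX1 and HHEX and 189 bases long in the 3 TALE genes. MEIS1 and MEIS2 shared 158 of 189 homeobox bases and 62 of 63 residues. PBX3 shared 27 of 63 residues with each of them. Among the other 4 genes, the encoded residues were the same at 26.7% of positions for LHX6 and HHEX, the lowest pair, and at 45.0% for MEOX2 and HHEX, the highest.

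The iEC libraries held 14877502 to 16971865 counts and the iREC libraries 13739364 to 15987839. Levels are given as CPM, counts scaled to a common library size after TMM scaling. The floor of detection was set at 3 counts in a sample, which is 0.178 to 0.215 CPM here. The labels do not say that replicates came from separate cultures, so p-values measure only the spread between these samples. They mention no molecular identifiers, so the floor and the counting intervals cover counting error only. Endothelial markers were present in all 8 samples: the 10 listed genes, which include PECAM1 and CDH5, summed to between 7325 and 9419.7 CPM in iEC and between 4306 and 9588 CPM in iREC. The sum hides differences between the genes. By edgeR's test 4 of the 10 fell in iREC, 2 rose and 4 did not pass. PECAM1, CDH5, EGFL7 and ESAM fell without overlap between the groups, and TEK and CLDN5 rose. The log2 fold change was -1.57 for PECAM1 and -0.76 for CDH5. The iREC library F stood apart. Its endothelial sum of 4306 CPM was below the 7349 to 9588 CPM of the other 3 iREC samples. Its mural and mesenchymal sum of 4638 CPM lay above their 696 to 1327 CPM, and its epithelial sum of 4924 CPM lay above their 302 to 1117 CPM. In the iEC samples those sums were 271 to 517 CPM and 391 to 1174 CPM. The 6 pluripotency markers, which include LIN28A and ZFP42, summed to 529.5 CPM in iREC F, 59.1 to 194.9 CPM in the other iREC samples and 13.9 to 54.0 CPM in iEC. LIN28A alone made 482 CPM of the sum in iREC F. POU5F1 and SOX2 were each at 0.393 CPM there, and NANOG had at most 3 counts in each library. The part of these marker sums in the results below was not tested. In such bulk samples, fewer cells of a type and less RNA per cell cannot be told apart.

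MEOX2 was close to absent in iEC and among the most abundant of the 7 genes in iREC, while LHX6 was at a modest level in iEC and close to absent in iREC. PRRX1 was lower in iREC and MEIS2 was higher, both without overlap between the groups. MEIS1, HHEX and PBX3 overlapped between the groups. In the edgeR fit over 15330 tested genes, 4 of the 7 genes passed an adjusted p of 0.05, beside 25.0% of all tested genes. MEOX2 and MEIS2 were the 2 on the higher side, beside 13.2% of all tested genes, and LHX6 and PRRX1 the 2 on the lower side, beside 11.7%. The same 4 genes had no overlap between the groups, beside 29.1% of all tested genes. Which genes passed also depended on the samples: PRRX1 did not pass without iREC D, MEIS1 passed without iEC D, and HHEX passed without iREC F. Since the selection used this comparison, nothing is read from these counts. The plot of levels by sample shows the 7 genes side by side.

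**Figure D1:**
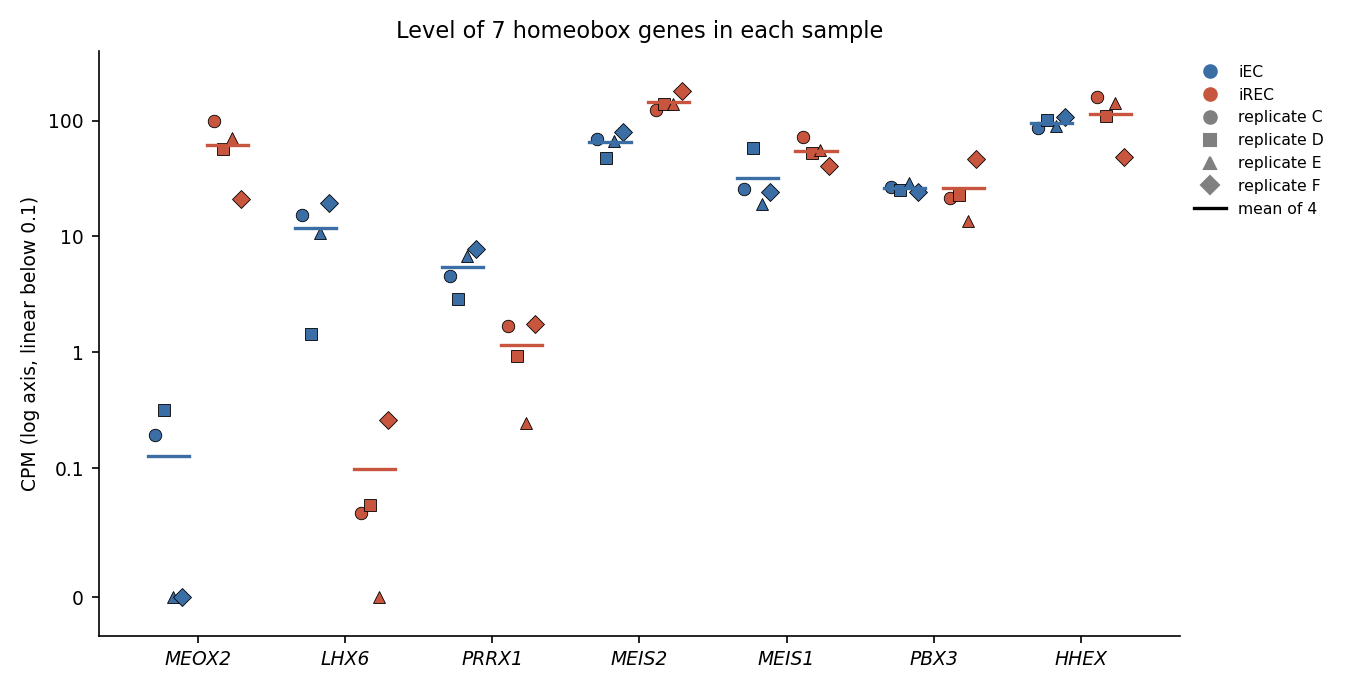
Level of each of the 7 genes in each of the 8 samples, in CPM on a log axis that is linear below 0.1; blue marks are iEC, red marks are iREC, the shape gives the replicate letter and the bar is the mean of 4 samples. MEOX2 lies at or below 0.316 CPM in iEC and at 21.1 CPM or above in iREC, and LHX6 lies at 1.45 CPM or above in iEC and at or below 0.262 CPM in iREC.

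MEOX2 (ENSG00000106511, chr7:15611212-15686812, minus strand), the growth arrest homeobox gene of the vessel wall, was at 0.195, 0.316, 0 and 0 CPM in iEC C, D, E and F. The iREC samples C, D, E and F held 99.5, 56.7, 70.5 and 21.1 CPM. The iEC values rest on 3, 5, 0 and 0 counts, so they lie about the floor of detection, and the lowest iREC sample, F, still held 322 counts. The group means were 0.128 ± 0.156 CPM in iEC and 62.0 ± 32.6 CPM in iREC (SD, n = 4). The fitted log2 fold change was 8.82 ± 0.76 (SE), and the summed counts per library size were 483 times as high in iREC, with a 95% counting interval of 245 to 1119. The fitted value ran from 8.39 without iEC E to 9.72 without iEC D. Within iREC, sample C was 4.72 times as high as sample F. The deposited table also lists AC005550.2, a gene on the opposite strand inside MEOX2, with 0 counts in each iEC sample and 3, 10, 8 and 3 counts in iREC. Whether the counting used strand is not known, and those counts are few beside the 3793 counts of MEOX2 in iREC.

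LHX6 (ENSG00000106852, chr9:122202577-122229626, minus strand), the interneuron factor, was at 15.4, 1.45, 10.7 and 19.5 CPM in iEC C, D, E and F. It was at 0.0654, 0.0714, 0 and 0.262 CPM in iREC. The iREC values rest on 1, 1, 0 and 4 counts, so LHX6 was at or about the floor of detection in iREC, and iEC D stood far below the other 3 iEC samples. The group means were 11.7 ± 7.75 CPM in iEC and 0.0997 ± 0.113 CPM in iREC (SD, n = 4). The fitted log2 fold change was -6.78 ± 0.98 (SE), and the summed counts per library size were 117 times as high in iEC, with a 95% counting interval of 53.3 to 319. Within iEC the highest sample, F, was 13.4 times as high as the lowest, D, the widest spread in iEC among the 6 genes with counts in each iEC sample. The fitted value was -7.16 without iEC D. Of the neuronal markers, which include the interneuron genes that LHX6 is known to precede, SST and ELAVL3 had at most 3 counts in each of the 8 libraries, and PVALB had 0 counts in iEC and 31 over the 4 iREC samples. GAD1 was below the filter, with 43 counts over the iEC samples and 59 over the iREC samples. TUBB3, a tubulin of neurons, fell by 1.51 with an SE of 0.34 on the log2 scale, without overlap (edgeR adjusted p 0.0116). It had 206 counts over the iEC samples and 70 over the iREC samples. MAP2 was at 7.06 ± 2.56 and 3.17 ± 2.88 CPM and did not pass. The 6 neuronal markers with a row summed to between 7.94 and 15.4 CPM in iEC and between 3.53 and 9.56 CPM in iREC, and their part in the LHX6 values was not tested.

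PRRX1 (ENSG00000116132, chr1:170662728-170739419, plus strand), a factor of limb and craniofacial mesenchyme also tied to epithelial-mesenchymal transition, was at 4.55, 2.91, 6.75 and 7.80 CPM in iEC C, D, E and F. It was at 1.70, 0.928, 0.244 and 1.77 CPM in iREC. Every iEC sample was above every iREC sample, by a small margin between iEC D and iREC F. The means were 5.50 ± 2.20 and 1.16 ± 0.720 CPM (SD, n = 4), and the fitted log2 fold change was -2.24 ± 0.56 (SE). With single samples left out it ran from -2.52 to -1.90. The 14 mural and mesenchymal markers were mixed: of 12 tested, 4 rose, 2 fell and 6 did not pass. Of all tested genes, 25.0% passed. TAGLN, CNN1 and TBX18 rose without overlap between the groups. LUM rose with overlap, at 429 CPM in iREC F and 1.96 to 61.9 CPM in the other iREC samples. THY1 and RGS5 fell, the direction in which PRRX1 differed, both with overlap. RGS5 had 2 rows, and the row with more counts was used. The collagen genes COL1A1, COL1A2 and COL3A1 and the receptor PDGFRB did not pass, with overlap between the groups. DCN and PDGFRA were below the filter and were not tested. DCN had 1 count over the iEC samples and 2365 over the iREC samples, 2039 of them in iREC F. PDGFRA had 11 and 63. Both were higher in iREC without overlap, the other side from PRRX1. The sum of all 14 markers was higher in each iREC sample (696 CPM or more) than in each iEC sample (517 CPM or less). However, TAGLN alone made 732 of the 1071 CPM in iREC C. The part of these markers in the PRRX1 values was not tested.

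The 3 TALE genes encode cofactors that bind DNA together and with HOX proteins. MEIS2 (ENSG00000134138, chr15:36889204-37101299, minus strand) was at 69.2, 47.3, 66.1 and 79.2 CPM in iEC and at 122, 140.0, 138 and 178 CPM in iREC. All 4 iREC samples were above all 4 iEC samples. The means were 65.5 ± 13.4 and 144.7 ± 23.8 CPM (SD, n = 4), and the log2 fold change of 1.14 ± 0.18 (SE) moved only between 1.01 and 1.25 when single samples were left out. MEIS1 (ENSG00000143995, chr2:66433452-66573869, plus strand), known from blood stem cells and vessel development, was at 25.9, 57.8, 19.1 and 24.3 CPM in iEC. It was at 72.3, 52.0, 55.6 and 40.5 CPM in iREC. Here iEC D alone lay within the iREC range, and the other 3 iEC samples lay below each iREC sample. The log2 fold change of MEIS1 was 0.79 ± 0.34 (SE), and it was 1.25 without iEC D.

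PBX3 (ENSG00000167081, chr9:125747345-125967377, plus strand), a partner of both MEIS proteins, was at 26.6, 25.1, 28.7 and 24.2 CPM in iEC, the tightest group of values among the 7 genes. In iREC it was at 21.7, 22.8, 13.5 and 46.2 CPM. The mean was 26.1 CPM in both groups, with an SD of 1.97 in iEC and 14.1 in iREC (n = 4). The log2 fold change was -0.01 ± 0.32 (SE) and had no stable sign: it was -0.44 without iREC F and 0.21 without iREC E, and it was also above 0 with upper quartile scaling. So 3 of 4 iREC samples lay below the lowest iEC sample, and iREC F lay above the highest.

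HHEX (ENSG00000152804, chr10:92689951-92695646, plus strand) was at 86.1, 101, 88.9 and 108 CPM in iEC C, D, E and F. In iREC it was at 159, 109, 141 and 48.6 CPM. The iREC samples C, D and E lay above all iEC samples, and iREC F lay below all of them. The means were 96.1 ± 10.4 and 114 ± 48.4 CPM (SD, n = 4), and the log2 fold change was 0.25 ± 0.30 (SE). It was 0.50 without iREC F and 0.04 without iREC C.

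Levels of different genes can be compared only per length, for which the authors' deposited FPKM values were used. In iEC the order by mean FPKM was HHEX at 37.8 ± 4.80, MEIS2 at 6.03 ± 1.33, PBX3 at 5.73 ± 0.378, MEIS1 at 2.87 ± 1.56, LHX6 at 2.04 ± 1.37, PRRX1 at 0.666 ± 0.278 and MEOX2 at 0.050 ± 0.0610 (SD, n = 4). The lowest value of HHEX was above the highest of MEIS2, and the same held for PBX3 over MEIS1 and PRRX1 over MEOX2. The ranges of the other neighbours overlapped. In iREC the order was HHEX at 44.4 ± 18.7, MEOX2 at 24.3 ± 12.8, MEIS2 at 13.2 ± 2.26, PBX3 at 5.67 ± 3.11, MEIS1 at 4.95 ± 1.17, PRRX1 at 0.139 ± 0.0866 and LHX6 at 0.0171 ± 0.0195 FPKM. There, the ranges of MEIS2 and PBX3 and of MEIS1 and PRRX1 did not overlap, and those of the other neighbours did. HHEX was above MEOX2, and PRRX1 above LHX6, within each of the 4 iREC samples. MEOX2 was thus last of the 7 genes in iEC and the second by mean in iREC, and HHEX had the highest mean in both groups.

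The spread of the 7 genes within a group was uneven over the samples. On the log2 CPM scale, D was the iEC sample nearest to the iREC mean for 5 of the 7 genes (LHX6, MEOX2, PRRX1, MEIS1 and HHEX), beside 32.8% of all tested genes. On the CPM scale, F and not D was nearest for HHEX. On the same log2 scale, F was the iREC sample nearest to the iEC mean for 4 of the 7 genes (LHX6, MEOX2, PRRX1 and MEIS1), beside 33.5% of all tested genes. In iREC F, MEOX2, HHEX and MEIS1 were at their lowest iREC level, and LHX6, PRRX1, MEIS2 and PBX3 were at their highest. The mural, mesenchymal and epithelial marker sums of iREC F were given above, and their part in these values was not tested. Without iREC F the log2 fold changes were 9.11 for MEOX2, -7.82 for LHX6, -2.52 for PRRX1, 1.03 for MEIS2, 0.92 for MEIS1 and -0.44 for PBX3. All of these but MEIS2 lay farther from 0 than with all 8 samples, and so did HHEX.

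**Figure D2:**
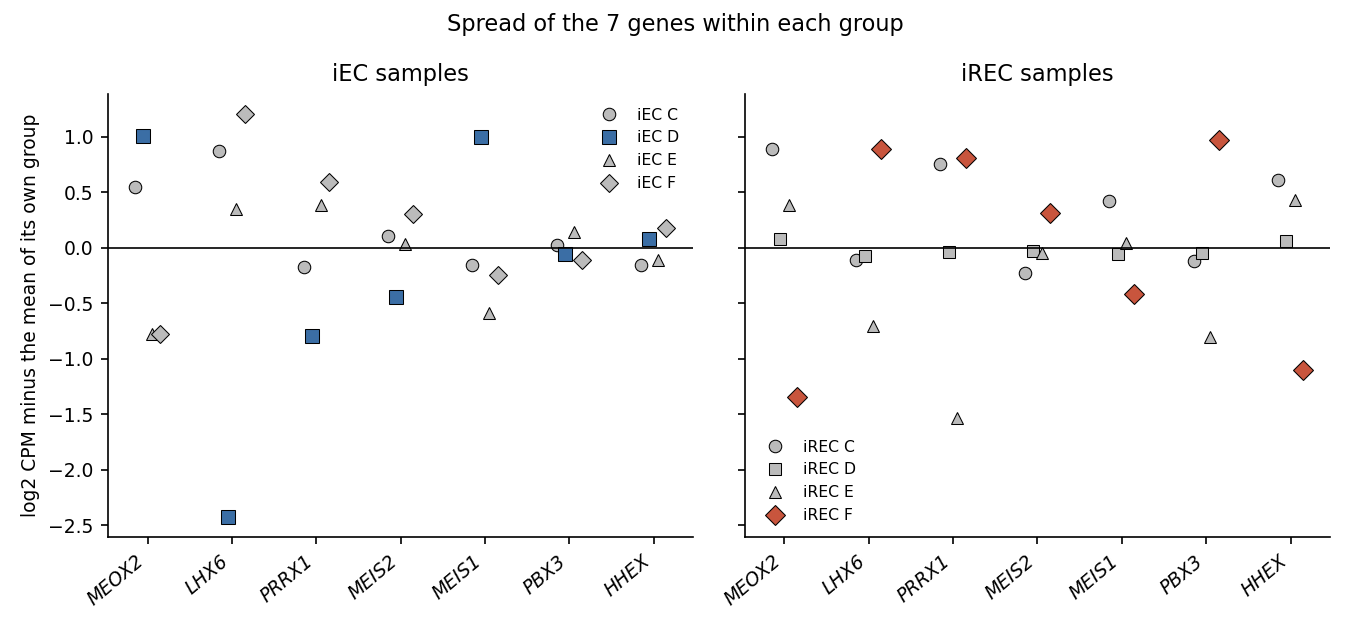
Spread of the 7 genes within each group, as log2 CPM (prior count 2) minus the mean of the 4 samples of the same group; iEC D (blue) and iREC F (red) are in colour. In iEC D, LHX6, PRRX1 and MEIS2 lie lowest and MEOX2 and MEIS1 highest of the 4 iEC samples, and in iREC F, MEOX2, HHEX and MEIS1 lie lowest of the 4 iREC samples.

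Among 9957 tested protein-coding genes that averaged 10 CPM or more in iEC or iREC, those whose log2 CPM over the 8 samples was most like that of LHX6 were NDUFS3 (Pearson's r 0.990), FAM171A1 (0.987) and CDC123 (0.987). Like LHX6, all of them had their lowest iEC value in D and their highest iREC value in F. Their differences were far smaller than that of LHX6: FAM171A1, for example, was at 129 ± 18.2 CPM in iEC and 64.5 ± 4.89 CPM in iREC (SD, n = 4). The genes most like MEOX2 were PRICKLE1 (0.999), FBXO34 (0.997) and CGNL1 (0.997). PRICKLE1 was at 3.64, 4.49, 2.72 and 2.51 CPM in iEC and at 74.1, 46.0, 57.0 and 33.7 CPM in iREC, the same order of samples as MEOX2 where MEOX2 had counts. The correlations describe 8 samples that fall into 2 groups and share their libraries.

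The wider set of non-HOX homeobox genes was read in the same fit, with the 8 selected genes left out. This list, too, was chosen with earlier results of these data known, so its shares are a description. Of 167 such genes listed, 115 had a row and 47 were tested. NKX2-3, BARX2, SHOX2, PKNOX2 and GBX2 were among those that rose in iREC, and HOPX, PAX3, TSHZ1, POU2F2 and TGIF1 among those that fell. By edgeR's test 18 of the 47 passed an adjusted p of 0.05, with 11 higher and 7 lower in iREC. That is 38.3% of the list, beside 25.0% of all tested genes, and 21 of the 47 had no overlap between the groups, beside 29.1% of all tested genes. The median log2 fold change was 0.17 over the list and 0.02 over all tested genes. The list median is the same with BARX2, which had no counts in iEC, at its lower bound. Without iREC F, 18 genes of the list passed, and 16 of these were shared with the fit of all 8 samples. Of the 68 genes with a row that were not tested, 22 had at most 3 counts in each library.

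In the ANTP class of MEOX2 and HHEX, 3 of 9 tested genes rose, 1 fell and 5 did not pass. The share that passed was 44.4%, beside 25.0% of all tested genes. NKX2-3, known from the endothelium of gut and spleen, was at 0, 0.0632, 0 and 0 CPM in iEC and at 20.9, 50.1, 53.0 and 11.9 CPM in iREC. Its iEC value is a single read in D, and its summed counts per library size were 2109.5 times as high in iREC, with a 95% counting interval of 378 to 83360.4 (edgeR adjusted p 7.3e-05). BARX2, a factor of muscle and epithelial development, had 0 counts in each iEC sample and 19, 27, 47 and 44 counts in iREC, at least 46.5-fold higher against a floor of 3 counts over the iEC group (edgeR adjusted p 0.00097). GBX2, a factor of the midbrain-hindbrain border, rose by 1.71 ± 0.40 on the log2 scale (SE, edgeR adjusted p 0.0125). The gene that fell was HLX, a factor of blood and gut mesenchyme (-1.61 ± 0.43), which lies outside the naming rule and was chosen after its values were seen. The HLX call was lost without iEC E, iEC F, iREC D or iREC E.

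In the PRD class of PRRX1, 1 of 5 tested genes rose, 3 fell and 1 did not pass. The share that passed was 80.0%, beside 25.0% of all tested genes. SHOX2, known from the sinoatrial node and limb, had 1, 1, 0 and 0 counts in iEC and 24, 172, 183 and 79 counts in iREC, 233 times as high per library size with a 95% counting interval of 64.2 to 1932. HOPX, an atypical homeodomain protein that does not bind DNA, fell from 96.9 ± 6.95 to 1.20 ± 0.827 CPM (SD, n = 4), or by 6.32 with an SE of 0.41 on the log2 scale (edgeR adjusted p 2.3e-05). PAX3, of neural crest and muscle precursors, fell from 3.30 ± 0.563 to 0.415 ± 0.312 CPM. SHOX2, HOPX and PAX3, like PRRX1, had no overlap between iEC and iREC. PRRX2, the closest relative of PRRX1, was below the filter and was not tested, with 2 counts in all of iEC and 87 in all of iREC, a ratio of 44.3 with a 95% counting interval of 11.9 to 372. The ratio of PRRX2 thus lay on the other side from that of PRRX1.

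In the TALE class of MEIS1, MEIS2 and PBX3, 3 of 6 tested genes rose, 1 fell and 2 did not pass. The share that passed was 66.7%, beside 25.0% of all tested genes. PKNOX2, a relative of the MEIS genes, rose by 3.61 ± 0.53 on the log2 scale (SE, edgeR adjusted p 0.0013), from 0.483 ± 0.358 to 5.90 ± 2.48 CPM (SD, n = 4), and by 4.21 without iEC F. TGIF2, a repressor of TGF-β signalling, rose by 0.61 ± 0.12 on the log2 scale, and its relative TGIF1 fell by 1.63 with an SE of 0.33. PBX2 was at 150.4 ± 19.8 and 159.7 ± 10.4 CPM, a log2 fold change of 0.09 ± 0.12, and PKNOX1 had one of -0.27 ± 0.18. Neither of them passed. PKNOX1 passed when iREC F was left out (-0.45). PBX4 and MEIS3 were below the filter. PBX4 had 6 counts over the 4 iEC samples and 17 over the 4 iREC samples, and MEIS3 had 12 and 35.

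The LIM class of LHX6 held 1 other tested gene, LHX4, a pituitary and motor neuron factor, which had a log2 fold change of 0.56 ± 0.49 (SE) and did not pass. LHX8, the closest relative of LHX6, is not analysed here. In the other classes, 1 of 4 tested POU genes fell (POU2F2, an octamer factor of B cells, -1.90 ± 0.16 on the log2 scale, SE). None of the 3 SINE and 3 CUT genes passed. At an adjusted p of 0.05, 4 of 14 zinc finger homeobox genes passed (28.6%, beside 25.0% of all tested genes), with 3 higher and 1 lower. The lower one was TSHZ1, from 46.0 ± 10.7 to 9.38 ± 3.71 CPM (SD, n = 4). The higher ones, ZEB2 (1.63 ± 0.29), ZHX1 (0.62 ± 0.16) and ZHX2 (0.67 ± 0.18 on the log2 scale, SE), were chosen after their values were seen. ZHX2 did not pass when iEC C, D or E or iREC D was left out. The plot by class sets the 7 genes among these.

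**Figure D3:**
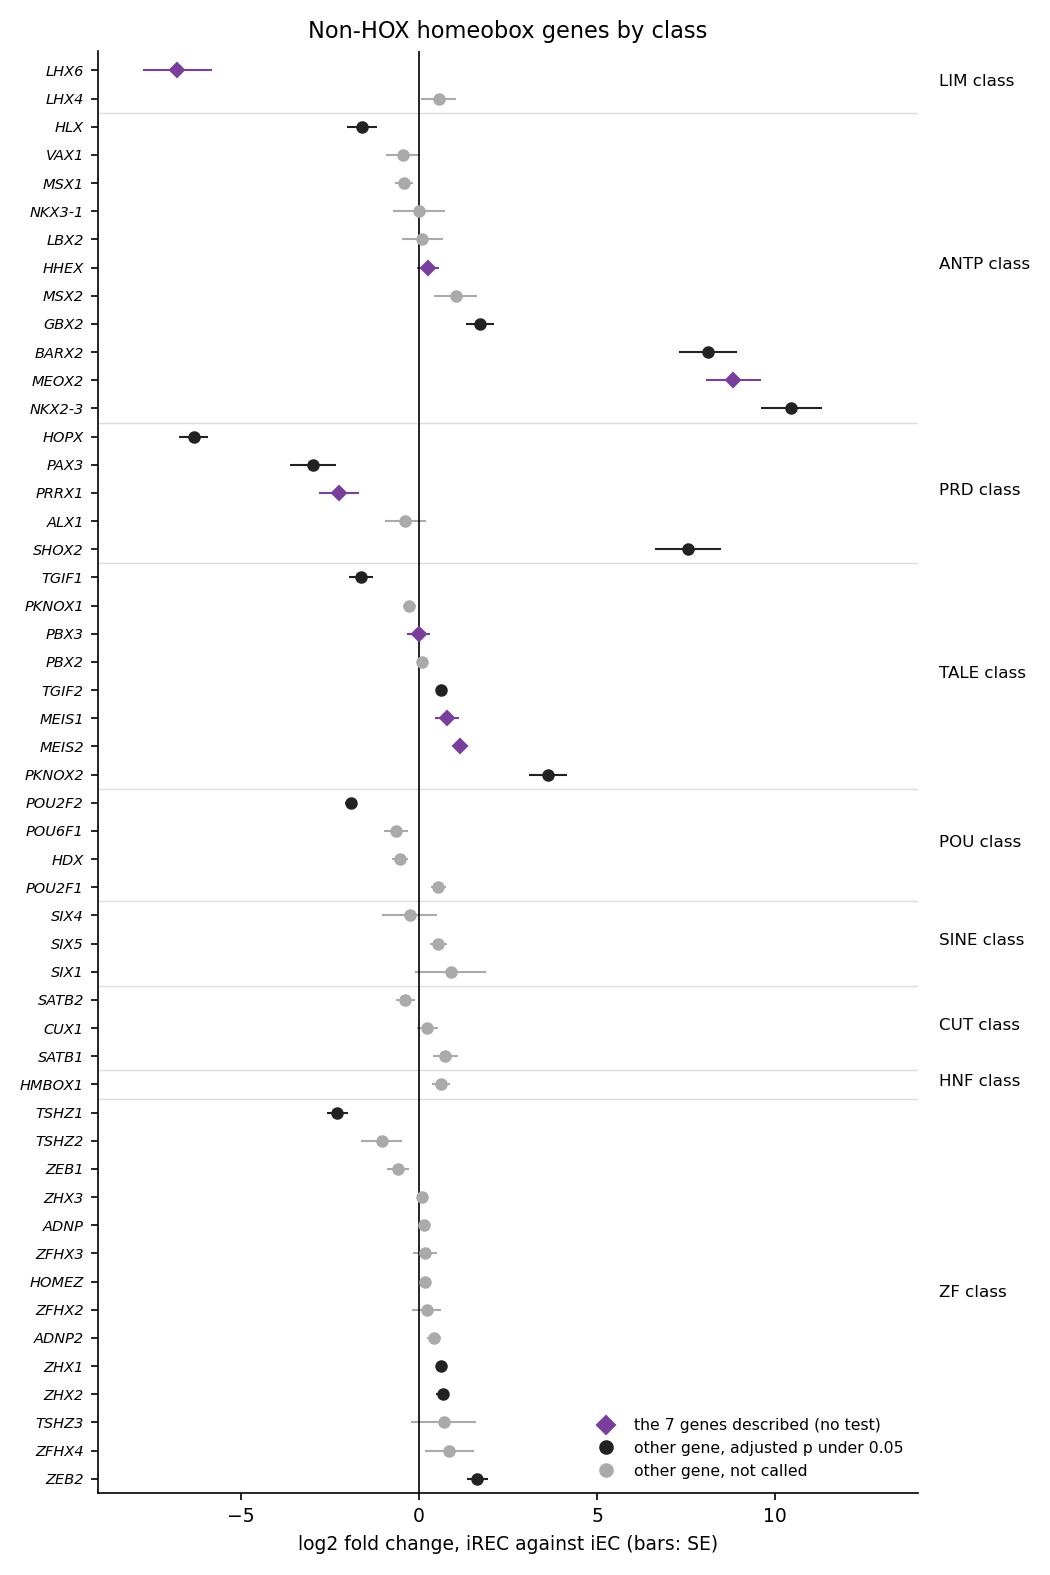
Fitted log2 fold change of iREC against iEC, with its SE as the bar, for the 7 genes (purple diamonds, no test) and 44 other tested non-HOX homeobox genes, in classes. Black points passed an edgeR adjusted p of 0.05, 9 of them to the right of 0 and 6 to the left, and NKX2-3, BARX2 and SHOX2 lie near MEOX2.

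Genes known to act with or under LHX6, MEOX2, HHEX and PRRX1 were read in the same fit, from 4 lists. The lists were chosen with earlier results of these data known. The shares that passed are therefore a description, and nothing is read from them. For MEOX2, the list held TCF15, which pairs with it in heart endothelium, the fatty acid uptake genes FABP4, FABP5, CD36, LPL and GPIHBP1, and the cell cycle inhibitors CDKN1A and CDKN2A. Of these 8 genes, 3 rose, 4 fell and 1 did not pass. The share that passed was 87.5%, beside 25.0% of all tested genes. FABP4, a fatty acid carrier of capillaries, had 1, 1, 2 and 1 counts in iEC, under the floor, and 25.5 ± 12.4 CPM in iREC (SD, n = 4). Its summed counts per library size were 316 times as high in iREC, with a 95% counting interval of 135 to 973 (edgeR adjusted p 2.6e-05). CD36, the fatty acid translocase, rose from 0.987 ± 0.635 to 143 ± 91.7 CPM (SD, n = 4), and GPIHBP1, which holds lipoprotein lipase on capillaries, by 5.07 ± 0.94 on the log2 scale. GPIHBP1 had 0, 12, 3 and 0 counts in iEC, and its rise was 6.85 without iEC D. LPL, the lipase itself, was at 187 ± 161 and 373 ± 243 CPM and did not pass (edgeR adjusted p 0.259), except when iEC D, which held 423 CPM, was left out. CDKN2A, which encodes p16, fell from 25.8 ± 27.3 to 0.131 ± 0.0924 CPM, with 2, 1, 1 and 4 counts in iREC. In iEC F it was at 65.7 CPM and in the other iEC samples at 6.51 to 21.2 CPM, and the log2 fold change of -7.53 was -6.50 without iEC F. CDKN1A, which encodes p21, fell from 856 ± 344 to 289.6 ± 47.2 CPM. TCF15 fell by 1.53 and FABP5 by 0.80 on the log2 scale. So FABP4, CD36 and GPIHBP1 lay on the side of MEOX2, and both cell cycle inhibitors, TCF15 and FABP5 on the other. Within iREC the sample order was mixed. MEOX2 was highest in C, and so was LPL, at 725 CPM. FABP4, CD36, GPIHBP1 and CDKN1A were lowest in C, at 12.2, 51.9, 3.14 and 259 CPM. FABP5, TCF15 and CDKN2A were neither highest nor lowest there.

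For LHX6, the list held LIM domain cofactors and genes tied to them. Of 8 tested, 2 rose, 1 fell and 5 did not pass, so 37.5% passed, beside 25.0% of all tested genes. LMO4 rose by 1.10 ± 0.19 on the log2 scale, and LMO2, a bridging factor of blood and endothelium, by 0.99 ± 0.28 (edgeR adjusted p 0.0314). LMO2 did not pass when iEC D, iEC F, iREC D or iREC E was left out, nor with the replicate block (edgeR adjusted p 0.0782). SSBP3, a single-stranded DNA binding partner of LDB1, fell from 141 ± 9.50 to 41.6 ± 6.30 CPM (SD, n = 4). LDB1, the cofactor that LIM homeodomain proteins bind, was at 63.3 ± 8.50 and 76.7 ± 11.2 CPM and did not pass (edgeR adjusted p 0.201). LDB2 had a log2 fold change of 1.15 ± 0.38 and missed the threshold (edgeR adjusted p 0.0509), and it passed in 9 of the 16 alternatives, among them the fits without iEC D or iREC F. LDB1 and LDB2 were thus present in both groups, including the iREC samples in which LHX6 was at or about the floor.

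For HHEX, the list held vascular receptor and lymphatic genes reported under its control. Of 7 tested, 1 rose and 6 did not pass, which is 14.3%, beside 25.0% of all tested genes. TEK, the angiopoietin receptor, was at 59.7, 84.0, 58.5 and 33.5 CPM in iEC and at 839, 907, 1118 and 466 CPM in iREC, a rise of 3.82 ± 0.35 on the log2 scale (edgeR adjusted p 0.00011). FLT1 (-0.04 ± 0.30) and FLT4 (0.01 ± 0.18 on the log2 scale, SE), receptors of the VEGF family, changed sign between alternatives. KDR, TIE1, NRP1 and VEGFC had log2 fold changes of 0.37 ± 0.31, -0.67 ± 0.23, 0.76 ± 0.38 and 1.11 ± 0.48. NRP1 (1.31) and VEGFC (1.77) passed when iEC D was left out, and VEGFC also by limma-voom. TIE1, whose groups did not overlap, passed when iREC E was left out, with no filter and by DESeq2. PROX1, the lymphatic homeobox factor, was below the filter, with 11 counts over the 4 samples of iEC and 10 over those of iREC.

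For PRRX1, the list held factors and products of mesenchymal transition. Of 7 tested, 4 rose, 1 fell and 2 did not pass, while PRRX1 itself was lower in iREC. In this list 71.4% passed, beside 25.0% of all tested genes. POSTN, a matrix protein of mesenchyme, rose from 13.4 ± 13.3 to 852 ± 335 CPM (5.99 on the log2 scale, and 6.72 without iEC F), and FN1, fibronectin, from 335 ± 173 to 13379 ± 3052 CPM (SD, n = 4). SNAI2, a repressor of epithelial genes, rose by 2.76 ± 0.51 on the log2 scale (SE, edgeR adjusted p 0.0043). TNC, tenascin C, rose by 2.69 ± 0.86 (edgeR adjusted p 0.0479), with overlap between the groups and 562 CPM in iREC F against 14.4 to 174 CPM in the other iREC samples, and without iREC F it was 1.52. TNC did not pass when any 1 sample other than iREC C was left out, nor by limma-voom (1.77) or with the replicate block (1.75). VIM, vimentin, fell from 1565 ± 440 to 588 ± 120 CPM. SNAI1 (-0.70 ± 0.35) and CDH2 (0.71 ± 0.42, and 0.10 without iREC F) did not pass, and TWIST1 and TWIST2 were below the filter. In iREC, FN1 was at 13390.0 CPM in C, 11742 in D, 17651 in E and 10732 in F, so it was lowest in F. The other 8 genes of the list, tested or not, were each at their highest iREC level in F, the sample with the highest mural and mesenchymal sum, and the part of that sum was not tested. POSTN, for example, was at 1315 CPM in F and at 531 to 851 CPM in the other iREC samples.

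**Figure D4:**
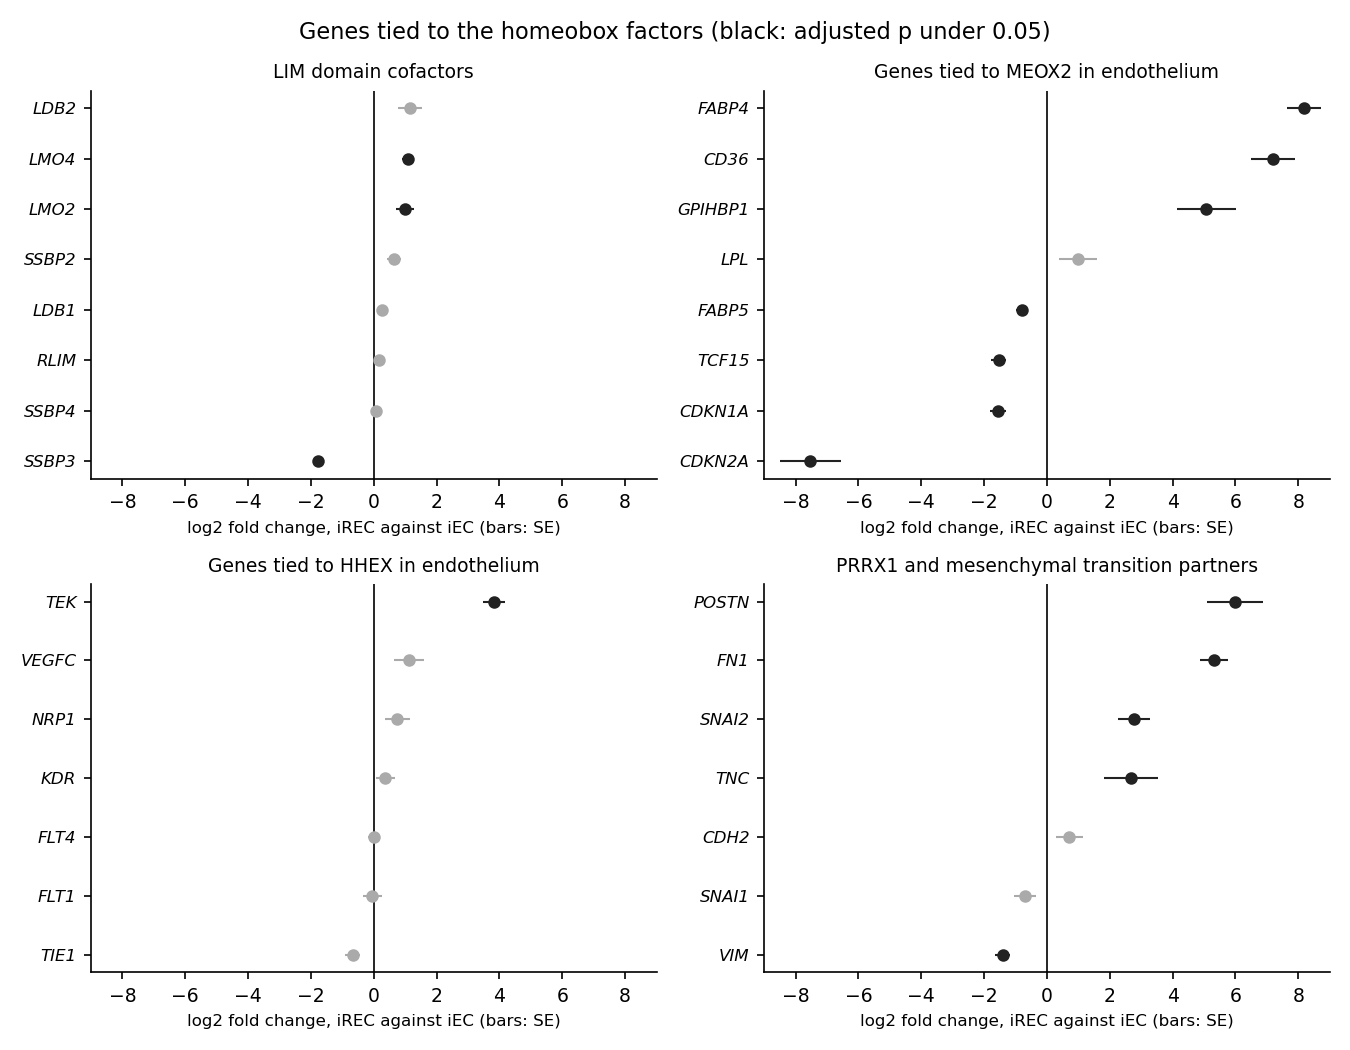
Fitted log2 fold change of iREC against iEC, with its SE as the bar, for the tested genes of the 4 lists tied to LHX6, MEOX2, HHEX and PRRX1; black points passed an edgeR adjusted p of 0.05. In the MEOX2 list 3 points lie to the right and 4 to the left among those that passed, in the HHEX list only TEK passed, and in the PRRX1 list VIM is the 1 that fell.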

How the data were processed

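Polyadenylated RNA was sequenced with a dUTP library, per the labels' protocols. Per the submitters' processing notes, fastp and HISAT2 2.0.5 were used with hg38. The counting program and its use of strand are not given in the sources used here. The authors deposited 1 table. Per the file headers it holds a raw read count per gene and sample, FPKM, a normalized signal (count over a size factor) and its group means, and a log2 fold change with p-values. The deposited signal, log2 and p-value columns were not used for results. All gene positions matched GENCODE release 29 (GRCh38).

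Genes were kept by filterByExpr of edgeR 4.0.16 (15330 of 30386), scaled by TMM and compared by its quasi-likelihood F-test over all 8 samples with group as the only term and Benjamini-Hochberg adjustment over all tested genes. A gene rose or fell at an adjusted p under 0.05. Each SE was taken from the coefficient and its F value. Sample deviations and correlations used log2 CPM with a prior count of 2. Ratios of summed counts carry exact 95% intervals. The test was also tried on simulated data in R 4.3.3, and the outcome is not given here. Replicates of a group differed by more than sampling noise (chi-square per degree of freedom 16.7 to 93.5).

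The genes and lists were chosen with earlier results of these data known. The naming rule took the 6 largest called rises and falls among other homeobox genes that averaged 1 CPM or more in iEC or iREC, close relatives of the 7 genes (some genes under the rule are not reported here), all tested genes of the 4 lists, and the 3 genes most like LHX6 and MEOX2. Alternatives were 3 other scalings, 2 other filters, DESeq2 1.42.0, limma-voom (limma 3.58.1), the replicate letter as a block, and each sample left out.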

Additional observations from a re-analysis of the deposited data

Results flagged for a closer look

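The highest and the lowest sample of a group were set against the others by Dixon's test at 95%. This was done in 46 groups of 4 samples, 2 groups for each of the 7 genes and the tested homeobox genes of the naming rule. Homeobox genes outside that set were not examined. Chance singles out about 1 in 20 groups, or 2.3 here, and 4 were singled out, all in named homeobox genes outside the 7. NKX2-3 was at 0.0632 CPM in iEC D, which is a single read, and at 0 in the other 3 iEC samples. With 3 samples at 0 any other value is singled out, so nothing is read from this one. A group with all samples at 0, as BARX2 in iEC, cannot be singled out. The rate of 1 in 20 does not hold for such groups. PKNOX1 was at 30.2 CPM in iREC F and between 19.3 and 21.1 CPM in the other iREC samples. TGIF1 was at 35.6 CPM in iEC C and between 30.5 and 31.3 CPM in the other iEC samples. TSHZ1 was at 61.8 CPM in iEC F and between 39.1 and 42.7 CPM in the other iEC samples.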

How the results depend on the processing

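Of all tested genes 3829 were called, and the count ran from 3281 to 4664 over the 8 other fits and from 2660 (without iREC D) to 4214 (without iREC F) when single samples were left out. Of the other homeobox genes 18 were called, with 13 under the stricter filter, 24 with no filter and 15 to 19 with a sample left out. With the replicate block, 3334 genes and 19 homeobox genes were called, and all 18 kept their call. Whether the letters pair the samples cannot be settled from these values. Correlations of same-letter deviations were 0.168, -0.08, 0.03 and 0.250 for C, D, E and F. Neither iREC C nor D nor E correlated best with its own letter, but iREC F did. Among the iEC samples, C and F correlated best with their own letter, and D and E did not. LHX6, MEOX2, PRRX1, MEIS1, MEIS2 and HHEX kept their direction in all 16 alternatives, and PBX3 ran from -0.44 to 0.21 on the log2 scale. Direction also changed for 3 uncalled genes, and the cause was not tested. FLT1 had a log2 fold change of 0.0146 by limma-voom and 0.0161 with the replicate block, and -0.18 to 0.29 with samples left out. FLT4 had -0.0164 with no filter and -0.11 to 0.14 with samples left out. SSBP4 ran from -0.0536 to 0.16 with samples left out. In iREC LHX6 and CDKN2A, and in iEC MEOX2, FABP4, NKX2-3, BARX2 and SHOX2, rest on a few counts at most per sample, so their fitted folds depend on the fit's handling of low counts.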
